A study of Oncorhynchus mykiss with 69 samples.

Results

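The cilium and centrosome genes described here are 116 annotated rainbow trout genes chosen by symbol, with earlier results of these data known. Their symbols begin with the prefixes of the intraflagellar transport (ift), Bardet-Biedl (bbs), cilia and flagella associated (cfap), dynein (dnah, dnai, dync), outer dynein arm docking (odad), radial spoke (rsph), tektin (tekt), sperm associated antigen (spag) and centrosomal protein (cep) families, or are tmem67 or a tctn gene, and cep78 was left out. Of these genes, 109 were listed in at least 1 of the 6 deposited fold-change tables, among 35945 genes in all, and 38 were listed in all 6. The methylmercury tables held 73 of them for the gill line, 88 for the liver line and 81 for the gut line, and the fluoxetine tables held 78, 86 and 79. Because 76.7% of the listed genes carry a locus number and no symbol, further copies of these genes under such numbers were not included, and reads of near-identical copies may have been split between entries.

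Cell lines from 3 rainbow trout tissues received methylmercury or the antidepressant fluoxetine for 24 h, and their total RNA was sequenced in 69 libraries. The lines are labelled RTGill-W1 (gill), RTL-W1 (liver) and RTgutCC (intestinal epithelium), so each tissue is represented by 1 line, and all groups were grown in the same serum-supplemented medium. Each line had 2 libraries at each of 5 methylmercury concentrations and 2 control libraries, and a separate series of 1 library at each of 9 fluoxetine concentrations, from 1.6 to 1000 ppb, with 2 controls. The deposited tables give methylmercury as 0.25, 2.5, 25, 125 and 250, whereas the sample titles run 0.001 to 1, a factor of 250 lower, and neither states a unit. The table values are used below. The 2 fluoxetine controls of a line are titled ctrl and H2O, and the titles do not explain the difference. Both are used here as controls. In the fluoxetine F-test, the difference between these 2 libraries is the only spread within a group. Nothing in the labels says that the 2 libraries of a group came from separate cultures, so p-values measure the spread between libraries, which may be technical.

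A cilium is a microtubule-based projection that grows from a basal body, a modified centriole, and most vertebrate cells carry a single non-motile one that receives signals such as Hedgehog. Its parts are carried inward and outward by intraflagellar transport: the IFT-B complex travels with kinesin-2 to the tip, the IFT-A complex and dynein-2 return, the BBSome carries membrane proteins out, and the transition zone at the base acts as the gate. Motile cilia add dynein arms, radial spokes and a central pair. The cep genes serve the centriole and its surrounding material, which cycling cells also use to organise the spindle.

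The 2 libraries of a methylmercury group averaged between 7.74 and 11.51 M tabulated reads, and the single fluoxetine libraries held between 1.83 and 7.67 M, as recovered from the deposited values. Levels below are normalised reads, that is reads brought to the scale of the control libraries by the normalisation that the deposited log2 values carry. This scaling does not follow the tabulated read totals alone. For methylmercury each level is the geometric mean of 2 libraries, because values of single libraries could not be recovered. They are not corrected for gene length, so levels are compared between conditions of 1 gene. The level of the median gene fell with concentration, and at 250 it was 0.538 times control in the gill line, 0.583 times in the liver line and 0.496 times in the gut line. Changes are therefore given as log2 differences from control minus that median (centred changes), and a gene is said to have risen or fallen where the centred change had an adjusted p under 0.05. The test used the moderated variance that the authors' table implies, in the manner of limma, with Benjamini-Hochberg adjustment over all genes of a table. Levels in RPM are reads scaled to a common library size, as CPM values are. All concentrations of a line share the same 2 control libraries.

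The tissue labels could be checked on few genes. Of 10 hepatocyte markers the methylmercury table of the liver line listed only tf (transferrin), which fell, at 400 normalised reads at 250 against 1533 in control. Of 7 enterocyte markers the gut line listed only anpepb, at 0.232 RPM in control, whereas the liver line listed vil1 at 2.07 RPM and cdx1b with no control read. The gut line also listed the hepatocyte marker fga, at 680 normalised reads at 250 against 309 in control. Of 11 epithelial markers, the keratin gene krt18b was at 0.414 RPM in gut-line controls, 3630 in liver-line controls and 0.532 in gill-line controls. The only other one listed, tjp1b, was at 30.4 RPM in gill-line and 31.0 RPM in liver-line controls, and was not listed for the gut line. In the fluoxetine controls krt18b and tjp1b summed to 70.5 RPM in the gill line and 68.6 RPM in the gut line. Most defining markers of hepatocytes and enterocytes were thus not listed and some were found in the other line, and the lines are called by their labels. Of 10 markers of multiciliated cells, the gill and gut lines listed only rsph4a, and the liver line listed rsph4a, cfap52, dnai1.2 and foxj1b, with a summed level of 5.30 RPM in control. Fibroblast markers were abundant, with summed control levels of 8733, 48598 and 3680 RPM in the gill, liver and gut lines. These sums are over different genes in each line (4, 4 and 3 of 11 listed), so they do not compare the lines. A gene that is not listed is not a gene at 0, since the rule for entry in a table is not stated.

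In control cells the members spanned a wide range, from 0.0367 to 248 RPM in the gill line. In the methylmercury tables, the median control level of the members, not corrected for gene length, was 4.83 RPM in the gill line, 7.06 in the liver line and 10.4 in the gut line, beside 5.72, 6.02 and 9.22 over all genes. Fewer than 10 control reads were counted for 21.9%, 23.9% and 23.5% of them, beside 29.1%, 28.4% and 26.5% of all genes. The low levels were mostly those of genes of motile cilia. In the gill line 8 of 21 cfap genes and 4 of 12 axonemal dynein and docking genes were under 10 reads, whereas none of the 8 IFT-B genes was.

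Some members differed widely in level between lines, although the tables were normalised separately and no test was made of these differences. The tektin gene tekt3, which encodes a filament of the doublet microtubule wall, stood at 69.9 RPM in liver-line controls, 1.19 in gut-line controls and 0.179 in gill-line controls. The gene cfap53, needed for motile cilia and left-right asymmetry in vertebrates, stood at 14.6 in the liver line, 4.31 in the gill line and 0.258 in the gut line. The docking gene odad1 went the other way, with 6.57 in the gut line, 0.354 in the gill line and 0.107 in the liver line. In the fluoxetine controls the inner-arm heavy chain gene dnah2 was at 119 in the liver line, 8.61 in the gill line and 3.84 in the gut line. The highest control level among the members in the methylmercury tables was that of cep170aa, a centriolar appendage gene, at 248 in the gill line.

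At the highest methylmercury concentration more of these genes fell than rose, in all 3 lines. In the gill line 25 of 73 fell and 7 rose (34.2% and 9.59%), beside 19.6% of all genes called lower and 17.0% called higher. In the liver line 24 of 88 fell and 7 rose (27.3% and 7.95%), beside 13.3% and 15.7% of all genes. In the gut line 32 of 81 fell and 10 rose (39.5% and 12.3%), beside 25.9% and 21.9% of all genes. Taking both directions, 43.8%, 35.2% and 51.9% of the members passed, beside 36.6%, 29.0% and 47.8% of all genes, so the members stood further from the background in direction than in the number of calls.

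The median centred change of the members at 250 was -0.57 in the gill line, -0.47 in the liver line and -0.57 in the gut line. Leaving out members at 3 reads or fewer in both groups, and setting those with a group at 0 to the bound that 3 reads allow, gave -0.50, -0.48 and -0.65. Among genes with at least 10 control reads the member medians were -0.61, -0.52 and -0.72, beside -0.17, -0.10 and -0.22 for all such genes. Of those members 43.9%, 32.8% and 51.6% fell, beside 27.1%, 17.7% and 34.7% of all such genes. By the authors' deposited table, the F-test over all concentrations passed 44 gill-line, 49 liver-line and 53 gut-line members (60.3%, 55.7% and 65.4%), beside 56.8%, 45.8% and 63.4% of all genes. In these bulk libraries, fewer cells of a type and less RNA per cell cannot be told apart.

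**Figure D1:**
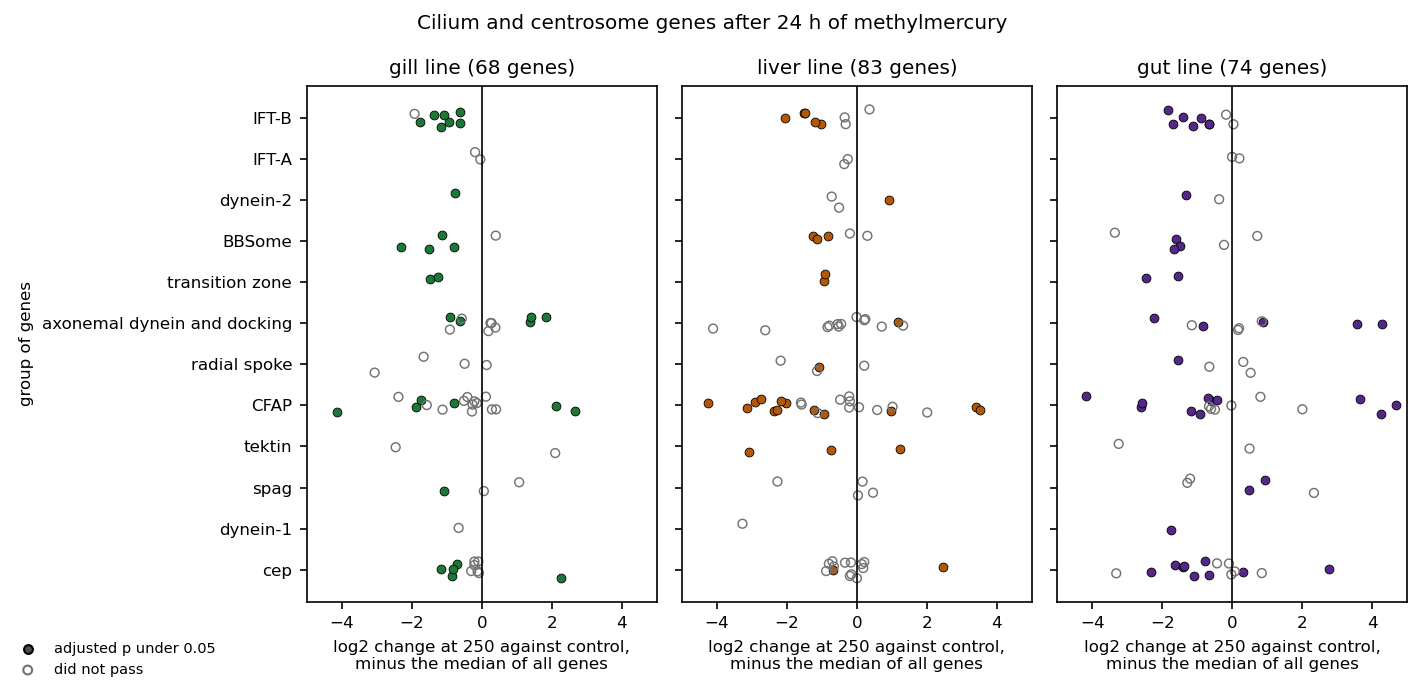
Centred log2 change at methylmercury 250 against control for each member of 12 groups by role, in the gill, liver and gut lines. Filled points had an adjusted p under 0.05, and members with 3 reads or fewer in both groups are left out (68, 83 and 74 genes shown). IFT-B, BBSome, transition zone and cep points lie mostly left of 0, whereas axonemal dynein and CFAP points are more mixed and lie on both sides.

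Most genes of the outward transport train that carry an ift symbol fell. IFT-B genes under other symbols are not in these counts and are given below. Of the IFT-B genes, 7 of 8 measured fell in the gill line, 5 of 8 in the liver line and 7 of 9 in the gut line, and none rose. Beside these counts, 19.6%, 13.3% and 25.9% of all genes were called lower in the gill, liver and gut lines. Among all genes with at least 10 control reads, as these IFT-B genes had, the shares were 27.1%, 17.7% and 34.7%. The median centred changes of the IFT-B genes were -1.11, -1.12 and -0.90. The genes that fell in every line were ift74, whose protein binds the tubulin cargo together with that of ift81, ift172, which links the train to its turnaround at the tip, and ift22, a small-GTPase-like subunit.

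In the gut line ift74 went through 430 normalised reads in control, 435, 381, 269, 118 and 59.3 over the 5 concentrations, a centred change at 250 of -1.83 ± 0.13 (SE, adjusted p = 3.7e-05, limma-type moderated test). In the gill line the series was 372, 369, 386, 276, 138 and 58.2, with a change of -1.77 ± 0.16 (adjusted p = 1.3e-04). In the liver line it was 375, 340, 372, 303, 174 and 78.8, with -1.47 ± 0.24 (adjusted p = 0.00398). The level of ift74 was thus close to control at 0.25 and 2.5 and lower at each of the 3 higher concentrations in all 3 lines. At 250 it was 3.56-fold, 3.41-fold and 2.76-fold lower than control relative to the median gene in the gut, gill and liver lines.

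The small-GTPase-like ift22 was at 18.3 normalised reads at 250 against 132 in control in the liver line, a centred change of -2.05 ± 0.19. The gill-line value was 31.3 against 131 (-1.15 ± 0.31) and the gut-line value 6.77 against 47.5 (-1.70 ± 0.47). For ift172 the centred changes were -0.94 ± 0.10, -1.04 ± 0.15 and -1.12 ± 0.16 in the gill, liver and gut lines, at control levels of 879, 765 and 360 normalised reads. The gill-line call for ift22 (adjusted p = 0.0258) sat at an adjusted p of 0.050 when changes were centred on a trimmed mean in place of the median.

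Not every IFT-B gene moved in every line. The subunit gene ift46 fell in the gill line, at 57.8 normalised reads at 250 against 278 in control (-1.36 ± 0.21), and in the liver line, at 42.4 against 209 (-1.51 ± 0.29). In the gut line it was at 147 against 334, a centred change of -0.17 ± 0.15 that did not pass (adjusted p = 0.372), and the difference between the gut and gill lines was itself past the threshold (1.19 ± 0.26, adjusted p = 0.00652). The core gene ift88 was measured in the liver and gut lines only, at centred changes of 0.36 ± 0.17 and 0.04 ± 0.18, neither of which passed. For ift52 the gill-line value at 250 was 9.77 against 71.8 with an SE of 1.59 on the log2 scale, and it did not pass there, whereas it fell in the liver line (-1.19 ± 0.14) and the gut line (-1.40 ± 0.23).

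Genes of the inward train gave no common direction. The IFT-A genes ift122 and ift140 passed in no line, with centred changes between -0.36 and 0.21. For the gut line, ift140 went through 278 normalised reads in control, 275, 269, 209, 183 and 137, which is a lower level at 250 that matched the median gene (-0.00 ± 0.19). In the liver line ift140 had the lowest of these changes, -0.36 ± 0.12 (adjusted p = 0.0555). Of the dynein-2 genes, the light intermediate chain dync2li1 fell in the gill line (-0.77 ± 0.20) and the gut line (-1.33 ± 0.23) and was at -0.51 ± 0.21 in the liver line (adjusted p = 0.106). The intermediate chain dync2i2 was listed only for the liver line and rose there, at 889 normalised reads at 250 against 798 in control (0.93 ± 0.20, adjusted p = 0.0126). Without centring its change was 0.15 and did not pass (adjusted p = 0.555). The gill-line call for dync2li1 was also lost under trimmed-mean centring (adjusted p = 0.0595).

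BBSome genes fell in each line and none rose: 4 of 5 measured in the gill line, 3 of 6 in the liver line and 3 of 6 in the gut line. Over all genes, 19.6%, 13.3% and 25.9% were called lower in these lines, and over genes with at least 10 control reads 27.1%, 17.7% and 34.7%. The BBSome subunit genes bbs1, bbs5 and bbs7 fell in all 3 lines. For bbs1 the gill-line series was 51.3 normalised reads in control, 44.4, 43.9, 42.3, 15.1 and 5.06, and its centred change at 250 was -2.32 ± 0.19 (adjusted p = 8.2e-05). That was a 5.00-fold lower level relative to the median gene, against 3.05-fold in the gut line and 2.40-fold in the liver line. For bbs7 the levels at 250 were 65.8, 86.3 and 73.8 normalised reads in the gill, liver and gut lines, against 348, 327 and 469 in control, and for bbs5 they were 56.9, 53.0 and 17.5 against 183, 163 and 101. The chaperonin-like gene bbs12, which helps to assemble the BBSome in mammals, did not pass in the liver line (0.30 ± 0.26) or the gut line (-0.23 ± 0.26).

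Both transition zone genes fell in all 3 lines, as did 9.22% of the 12586 genes listed for all 3. The gene tctn2, a tectonic of the gate complex, went through 270 normalised reads in control, 286, 244, 148, 80.3 and 45.7 in the gut line, and through 230, 221, 219, 165, 98.0 and 44.2 in the gill line. For the liver line, the series was 437, 441, 392, 340, 211 and 132. The centred changes at 250 were -1.54 ± 0.15, -1.47 ± 0.15 and -0.95 ± 0.12, and the gut-line change differed from the liver-line one by -0.59 ± 0.19 (adjusted p = 0.0469). The gene tmem67, which encodes the transmembrane protein meckelin, was at 8.77 normalised reads at 250 against 103 in control in the gut line (-2.45 ± 0.23). For the gill line, it was at 74.6 against 331 (-1.25 ± 0.17) and in the liver line at 85.9 against 278 (-0.91 ± 0.15). The gut-line fall of tmem67 was the larger one in both comparisons: it differed from the gill-line change by -1.20 ± 0.28 (adjusted p = 0.0101) and the liver-line change by -1.54 ± 0.27 (adjusted p = 0.00216).

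**Figure D2:**
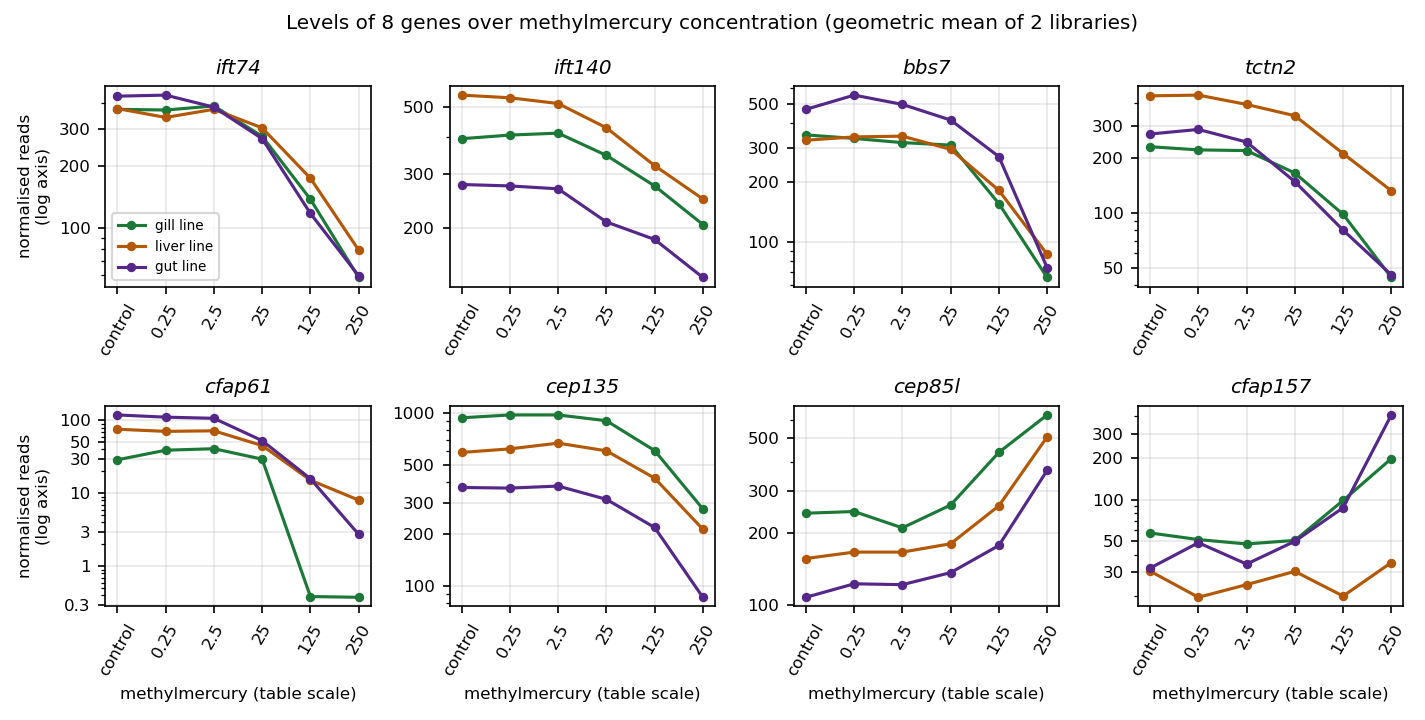
Normalised reads (log axis, geometric mean of 2 libraries) of 8 genes over control and the 5 methylmercury concentrations, with 1 curve for each cell line. The genes ift74, bbs7, tctn2, cfap61 and cep135 drop from 25 or 125 upwards, ift140 drops as the median gene does, and cep85l and, in the gill and gut lines, cfap157 climb.

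Genes of the motile axoneme gave mixed results and low levels. Of the axonemal dynein and docking genes, 3 of 12 rose and 2 fell in the gill line, 1 of 14 rose in the liver line, and 3 of 10 rose and 2 fell in the gut line. These counts stand beside 17.0%, 15.7% and 21.9% of all genes called higher and 19.6%, 13.3% and 25.9% called lower in the gill, liver and gut lines. The inner-arm heavy chain gene dnah12 was at 38.4 normalised reads at 250 against 19.8 in control in the gill line (1.83 ± 0.37) and at 81.9 against 62.0 in the liver line (1.18 ± 0.25). Another inner-arm gene, dnah2, was at 58.2 against 41.6 in the gill line (1.38 ± 0.26) and at 23.0 against 3.47 in the gut line (3.58 ± 0.82). The docking gene odad4 was at 44.2 against 30.7 in the gill line (1.41 ± 0.31). These gill-line and liver-line calls depended on the centring: uncentred, the changes of dnah12 (0.94 in the gill line, 0.40 in the liver line), dnah2 (0.48 in the gill line) and odad4 (0.52) did not pass. In gut-line cells dnah1 was at 12.3 reads at 250 against 0.823 in control (4.29 ± 1.34), a ratio on fewer than 3 control reads, and its uncentred change of 3.28 did not pass (adjusted p = 0.0648).

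The falls among these genes included dnah10, an inner-arm heavy chain gene, at 49.8 normalised reads at 250 against 142 in the gill line (-0.61 ± 0.11) and at 73.0 against 262 in the gut line (-0.82 ± 0.16). Within the gut line odad1, which anchors the outer arm to the doublet, was at 4.89 against 50.8 (-2.22 ± 0.30, adjusted p = 8.4e-04). The outer-arm heavy chain gene dnah5 passed in no line, with changes of 0.39 ± 0.26, 0.24 ± 0.25 and 0.20 ± 0.40 in the gill, liver and gut lines. At 250, radial spoke genes passed in 2 instances only, and calls at a lower concentration are given below. The counts were 0, 1 and 1 of 4 measured in the gill, liver and gut lines. Of all genes, 36.6%, 29.0% and 47.8% were called in either direction in these lines. The spoke gene rsph3 fell in the gut line, at 18.9 against 115 (-1.55 ± 0.15), more than in the gill line, where it was at 31.9 against 83.9 (-0.49 ± 0.18). The spoke-head gene rsph4a fell in the liver line, at 6.40 against 24.6 (-1.09 ± 0.30).

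Among the cfap genes, 4 of 21 fell and 3 rose in the gill line, 10 of 26 fell and 3 rose in the liver line, and 8 of 22 fell and 3 rose in the gut line. The gill-line shares (19.0% lower and 14.3% higher) were near those of all genes (19.6% and 17.0%), and the liver-line and gut-line shares called lower (38.5% and 36.4%) stood beside 13.3% and 25.9%. The gene cfap61, whose product sits at the base of a radial spoke, fell in all 3 lines. For the gut line, it went through 119 normalised reads in control, 111, 107, 52.9, 15.9 and 2.75, a centred change at 250 of -4.17 ± 0.16 (adjusted p = 2.1e-06). In gill-line cells it went through 28.9, 39.1, 41.0, 29.5, 0.386 and 0.377 (-4.15 ± 0.74). The last 2 gill-line levels are under 3 reads, and with 3 reads in place of the level at 250 the change would be -2.14 in the gill line and, for its 2.75, -3.92 in the gut line. The liver-line series went through 75.8, 70.9, 72.1, 45.3, 15.2 and 8.10 (-2.38 ± 0.36). The gut-line change differed from the liver-line one by -1.79 ± 0.39 (adjusted p = 0.0114).

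A further 2 cfap genes fell in all 3 lines. The gene cfap126, needed to place basal bodies in mouse, was at 5.64, 4.16 and 4.90 normalised reads at 250 in the gill, liver and gut lines, against 42.0, 59.2 and 66.7 in control. The gene cfap94 was at 4.0, 3.64 and 0.693 at 250 against 27.7, 31.5 and 14.5 in control, with centred changes of -1.75 ± 0.40, -2.18 ± 0.59 and -2.57 ± 0.65. The gut-line change of cfap94 would be -0.92 with 3 reads at 250. In liver-line cells cfap91, whose product belongs to the same spoke-base complex as that of cfap61, was at 9.47 against 82.3 (-2.28 ± 0.15, adjusted p = 8.9e-05), and it was not listed for the other lines.

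Several liver-line calls rested on a group with no reads. The gene cfap299 had 0 reads at 250 against 15.0 normalised reads in control, so its centred change was at most -1.44 with a floor of 3 reads per library. For cfap57 (0 against 6.73) and cfap52 (0 against 4.91) the same bounds were -0.34 and 0.08, so the size of these changes cannot be given and the fall of cfap52 relative to the median gene was not detectable at this depth. Within the gill line cfap92 passed at 2.94 reads at 250 against 0.618 in control, under 3 reads in both groups, and no fold is given for it.

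The gene cfap157, a target of the ciliogenesis factor FOXJ1 in mouse, rose in all 3 lines. The gut-line series was 31.9 normalised reads in control, 48.7, 34.1, 49.9, 87.3 and 410, a centred change at 250 of 4.68 ± 0.19 (adjusted p = 3.0e-06). The gill-line series was 57.3, 51.3, 47.7, 50.6, 98.5 and 198 (2.68 ± 0.19), and the liver-line level was 35.0 at 250 against 30.3 in control (0.98 ± 0.28). The gut and gill levels at 250 were above control without centring as well, whereas the liver-line change of 0.21 was not past the threshold without centring (adjusted p = 0.578). The 3 lines differed from each other in each pairing, by 2.0 ± 0.27 for the gut line minus the gill line and by 3.70 ± 0.34 for the gut line minus the liver line.

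Other cfap genes that rose were at low control levels. Within the liver line cfap74, a central pair gene, was at 26.6 normalised reads at 250 against 3.53 in control (3.52 ± 0.72), and cfap45, a protein of the doublet lumen, was at 11.4 against 1.44 (3.39 ± 0.65). In gut-line cells cfap70 was at 6.39 against 0.618 (3.65 ± 1.21) and in the gill line cfap251 was at 8.77 against 3.47 (2.12 ± 0.67). Neither of the last 2 passed without centring. The control levels of cfap45 and cfap70 were under 3 reads, which makes their ratios imprecise.

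Of the tektin genes, all 3 measured in the liver line passed, in different directions, beside 29.0% of all genes called in either direction. The gene tekt3, with the high liver-line control level given above, went through 652 normalised reads in control, 629, 626, 679, 822 and 892 (1.23 ± 0.17 at 250), and without centring the change of 0.45 did not pass (adjusted p = 0.0602). The genes tekt4, at 55.2 against 160 (-0.75 ± 0.19), and tekt2, at 0.348 against 11.4 (-3.08 ± 0.58, or -1.06 with 3 reads at 250), fell. The spag genes are related by name only. The central pair gene spag17 fell in the gill line, at 7.68 against 31.4 (-1.07 ± 0.33), and rose in the gut line, at 42.5 against 44.7 (0.94 ± 0.23). The adaptor gene spag9b, which encodes a scaffold that couples kinesin and dynein motors, was called higher in the gut line at 346 against 502 (0.48 ± 0.09), that is, it lost less than the median gene; uncentred, its change was -0.53.

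Centrosomal genes fell in different numbers in the 3 lines: 7 of 16 fell and 2 rose in the gut line, 4 of 12 fell and 1 rose in the gill line, and 1 of 15 fell and 1 rose in the liver line. The shares called lower were 43.8%, 33.3% and 6.67%, beside 25.9%, 19.6% and 13.3% of all genes in the gut, gill and liver lines. Nearly all cep genes had at least 10 control reads, and of all such genes 34.7%, 27.1% and 17.7% were called lower. The gill-line share was thus near that background, and the liver-line share was below both backgrounds. The cartwheel gene cep135, which is needed for centriole assembly, fell in all 3. It was at 279, 213 and 86.2 normalised reads at 250 in the gill, liver and gut lines, against 937, 591 and 371 in control (-0.85 ± 0.09, -0.69 ± 0.13 and -1.09 ± 0.15). The distal appendage gene cep83, which docks the centriole to the membrane, fell in the gut line, at 48.1 against 255 (-1.38 ± 0.12), and in the gill line, at 156 against 513 (-0.82 ± 0.10). For the liver line, cep83 was at 128 against 278 and did not pass (-0.34 ± 0.16, adjusted p = 0.146), and the gut line differed from it by -1.04 ± 0.19 (adjusted p = 0.00257). The transition zone gene cep290 fell in the gill line (-0.71 ± 0.21) and the gut line (-0.65 ± 0.14) and was at -0.88 ± 0.41 in the liver line (adjusted p = 0.152), and both calls were lost under trimmed-mean centring (adjusted p = 0.0875 and 0.0552).

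Other cep genes that fell in the gut line included cep70, at 5.70 normalised reads at 250 against 62.3 (-2.31 ± 0.62), cep19, at 15.6 against 101 (-1.64 ± 0.30), and cep76, which limits centriole reduplication, at 43.3 against 233 (-1.40 ± 0.17). For cep19 and cep76 the difference between lines also passed, with gut minus gill values of -1.34 ± 0.36 and -1.28 ± 0.22 (adjusted p = 0.0220 and 0.00126). The gene cep85l, whose pericentriolar product is needed for neuronal migration in mammals, rose in all 3 lines and did so without centring as well. It was at 627, 507 and 367 normalised reads at 250 in the gill, liver and gut lines, against 243, 157 and 108 in control (2.26 ± 0.14, 2.47 ± 0.26 and 2.78 ± 0.19). Of the cytoplasmic dynein-1 genes only the intermediate chain gene dync1i1 was listed in the methylmercury tables. It fell in the gut line, at 8.73 against 62.3 (-1.75 ± 0.35), and was at 16.8 against 50.2 in the gill line (-0.66 ± 0.26) and at 2.26 against 44.6 in the liver line (-3.27 ± 1.37), neither of which passed.

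Taking the 58 members listed for all 3 lines, 12 fell in every line: ift172, ift22, ift74, bbs1, bbs5, bbs7, tctn2, tmem67, cfap126, cfap61, cfap94 and cep135. The genes cfap157 and cep85l rose in every line, 14 genes passed in none, and 3 were called in opposite directions in different lines. Of these classes, falls in every line made up 20.7% of the 58, beside 9.22% of the 12586 genes listed for all 3 lines, and rises in every line 3.45%, beside 5.74%. Genes that passed in none were 24.1%, beside 32.1%, and opposite calls 5.17%, beside 2.13%. The 3 genes with opposite calls were cfap53, dnah7 and spag17. The opposite calls for cfap53 were the largest. In liver-line cells it went through 136 normalised reads in control, 139, 141, 108, 44.9 and 19.0 (-2.03 ± 0.25 at 250), and in the gut line through 2.0, 1.96, 0.570, 1.69, 7.80 and 23.3 (4.27 ± 0.74). The lines thus differed in control level more than at 250, with the tables normalised separately, and the gut line differed from the liver line by 6.29 ± 0.78 (adjusted p = 8.6e-04). For dnah7 the gut-line call (59.0 against 65.3, 0.87 ± 0.26) became -0.14 without centring, and for spag17 it became -0.07, so the opposite signs of these 2 genes depended on the centring. Their gill-line falls were lost under trimmed-mean centring (adjusted p = 0.0603 for dnah7 and 0.0815 for spag17).

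**Figure D3:**
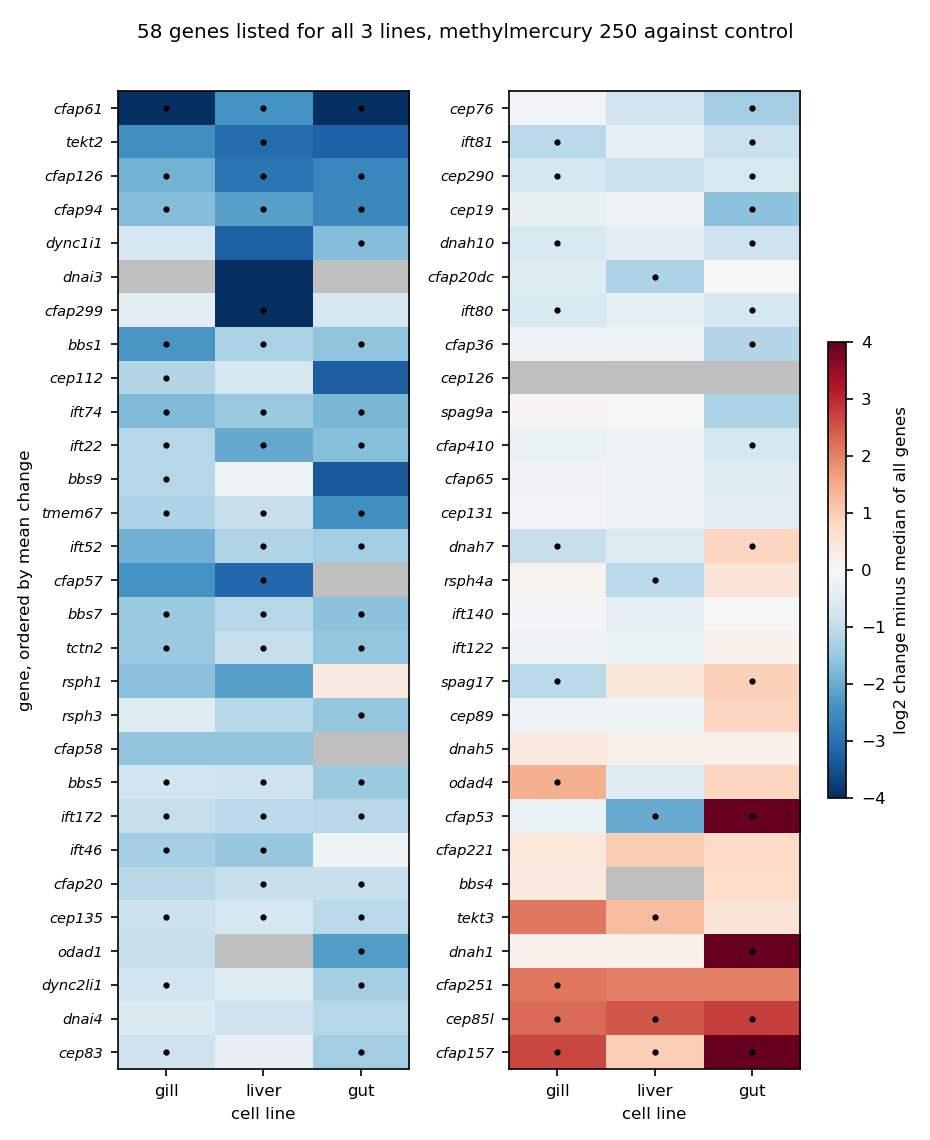
Centred log2 change at methylmercury 250 against control in the gill, liver and gut lines for the 58 genes listed for all 3, ordered by their mean change, with colours saturated at 4 in either direction. Dots mark an adjusted p under 0.05 and grey cells hold 3 reads or fewer in both groups; 12 genes are blue with a dot in all 3 columns and cep85l and cfap157 are red with a dot in all 3.

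Across the members measured in both lines of a pair, centred changes correlated with Pearson's r of 0.70 between the gill and liver lines (63 genes), 0.66 between the gill and gut lines (65 genes) and 0.40 between the liver and gut lines (71 genes). Over all genes the values were 0.52, 0.59 and 0.54. With at least 50 control reads in both lines, they were 0.86, 0.70 and 0.71 for 28, 31 and 38 members, beside 0.72, 0.70 and 0.69 for all such genes. These are descriptions across genes, which share their libraries and controls within a line and are not independent. The difference between lines was past the threshold for 4 of 63 members between gill and liver (6.35%, beside 11.6% of all genes), 12 of 71 between gut and liver (16.9%, beside 19.3%) and 12 of 65 between gut and gill (18.5%, beside 17.5%). These shares were near or below the background.

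Few members passed at lower concentrations. No member passed at 0.25, where 0.0221%, 0.0345% and 0.0549% of all genes did in the gill, liver and gut lines, or at 2.5, where 0.0354%, 0.0431% and 0.0503% did. At 25 no gill-line or liver-line member passed, beside 0.372% and 0.0690% of all genes. The only call at 25 was cfap61 in the gut line, the gene whose series is given above, beside 0.988% of all genes in either direction and 0.197% called lower. At 125, 10 members fell and 2 rose in the gill line (13.7% and 2.74%, beside 6.22% and 10.2% of all genes), and 13 fell and 4 rose in the liver line (14.8% and 4.55%, beside 2.35% and 8.42%). Within the gut line 10 fell and 2 rose at 125 (12.3% and 2.47%, beside 7.24% and 8.86%). The genes tctn2, cfap61, rsph3 and cfap36 were lower at 125 in all 3 lines. Of these, rsph3 and cfap36 passed at 250 in the gut line only. For tctn2 at 125 the adjusted p was 0.0129, 0.0177 and 0.00194 in the gill, liver and gut lines (limma-type moderated test). The gene cep85l was already higher at 125 in all 3 lines, by 1.30, 1.17 and 1.28 on the centred log2 scale.

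The authors' deposited tables also give benchmark doses, the concentration at which a fitted curve leaves the control range, for genes with a usable curve. Such a value stood for 27 gill-line, 28 liver-line and 38 gut-line members in the authors' deposited table (37.0%, 31.8% and 46.9% of those measured), beside 21.4%, 15.0% and 28.5% of all genes. The median benchmark dose of members in the authors' deposited table was 18.7 in the gill line, 22.2 in the liver line and 23.6 in the gut line, beside 23.1, 28.2 and 26.4 over all genes. Most of these curves were falls: 26 of 27, 27 of 28 and 36 of 38 had a lower deposited level at 250 than in control. Curves are fitted to the uncentred values, in which the median gene falls too. No count of falling curves over all genes is given here, so this direction is not read as particular to the members.

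The lowest benchmark doses in the authors' deposited table belonged to different genes in each line. For the gill line, they were those of cfap126 (2.84, bounds 0.643 to 5.75), bbs5 (9.65) and ift57, an IFT-B gene (10.5). For the gut line, they were those of tctn2 (0.782, bounds 0.121 to 1.96), ift74 (1.43) and dync1i1 (2.16). Within the liver line they were those of odad4 (0.0287), cfap57 (1.98) and tctn2 (2.70). The authors' deposited value for odad4 lies below the lowest concentration tested, 0.25, and its upper bound of 0.483 lies above it. The transition zone genes thus had benchmark doses of 13.0 and 14.6 in the gill line, 2.70 and 10.3 in the liver line and 0.782 and 23.5 in the gut line for tctn2 and tmem67 in the authors' deposited table.

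**Figure D4:**
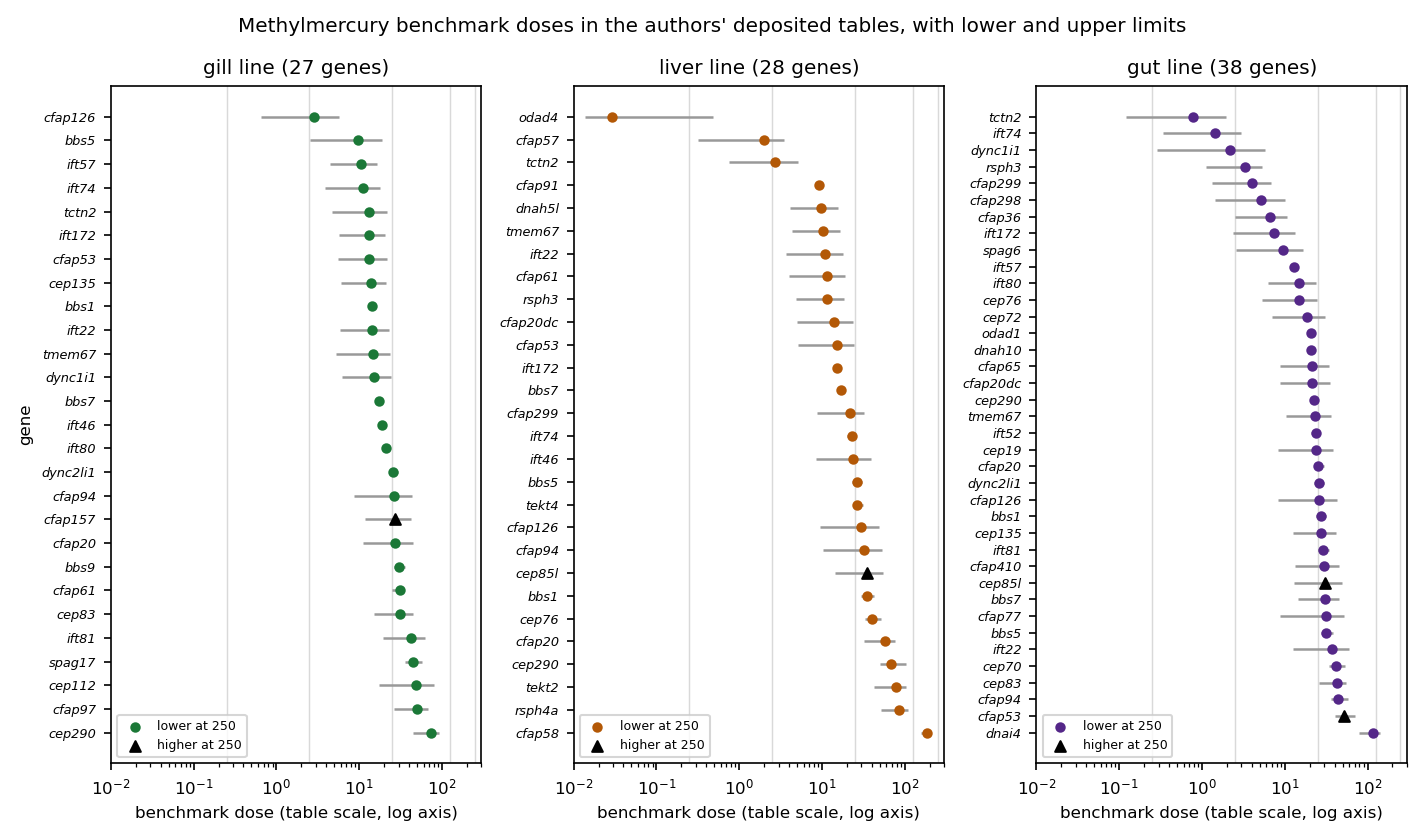
Benchmark dose with its lower and upper bound (log axis, table scale) of each member with an accepted methylmercury curve in the gill, liver and gut lines, as deposited by the authors. Grey vertical lines mark tested concentrations, most values lie between 10 and 50, and the low ends are cfap126 at 2.84 in the gill line, odad4 at 0.0287 in the liver line and tctn2 at 0.782 in the gut line.

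Other genes of the cilium, from a list of 63 that the symbol patterns do not match, also fell more often than they rose. Of those listed, 9 of 20 fell in the gill line, 11 of 22 in the liver line and 11 of 22 in the gut line, and 0, 0 and 2 rose, with median centred changes of -1.14, -0.66 and -0.78. The counts called lower stood beside 19.6%, 13.3% and 25.9% of all genes, and 27.1%, 17.7% and 34.7% of those with at least 10 control reads. The genes tmem231 and cc2d2a of the transition zone and wdr35 of the IFT-A complex fell in all 3 lines. In gut-line cells tmem231 was at 18.3 normalised reads at 250 against 129 in control (-1.77 ± 0.18), in the gill line at 27.1 against 115 (-1.17 ± 0.12) and in the liver line at 33.8 against 178 (-1.61 ± 0.19). The IFT-A gene wdr35 fell by 1.86, 1.14 and 1.24 on the centred log2 scale in the gill, liver and gut lines, whereas ift122 and ift140 of the same complex did not pass. The IFT-B genes hspb11 (0.26 ± 0.16, gill line) and cluap1 (0.35 ± 0.13, gut line) did not pass. Another, traf3ip1, fell in the gill line (-1.82 ± 0.53) but did not pass in the liver line (-0.18 ± 0.25) or the gut line (-1.61 ± 0.81). The kinesin-2 gene kif3a fell in the liver line (-0.63 ± 0.15) and the gut line (-0.76 ± 0.08). Its gill-line change was -0.02 ± 0.10.

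Of 42 further centrosome and centriole genes, 13 of 15 listed fell in the gill line, 5 of 19 in the liver line and 17 of 24 in the gut line, and none rose. Their shares called lower were 86.7%, 26.3% and 70.8%, beside 19.6%, 13.3% and 25.9% of all genes in the gill, liver and gut lines. Of all genes with at least 10 control reads, which most of these genes had, 27.1%, 17.7% and 34.7% were called lower. The median centred changes were -0.60, -0.39 and -0.91. The cartwheel gene sass6 fell in all 3 lines, at 197, 211 and 133 normalised reads at 250 against 582, 594 and 539 in control. As with the cep genes, the liver line had the fewest calls, and the difference in these counts between lines was not tested. Of the Hedgehog genes, whose signal passes through the primary cilium, smo fell in all 3 lines (-2.30 ± 0.09, -1.02 ± 0.22 and -1.36 ± 0.09 in the gill, liver and gut lines). The target gene gli1 rose in the gill line, at 36.8 against 20.5 normalised reads (1.72 ± 0.24), and did not pass in the liver line (20.8 against 23.5) or the gut line (6.37 against 5.92).

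Markers of other states also differed at 250, in part only by the shift of all genes. The summed level of the cell cycle markers listed, which is not centred, was 953 RPM at 250 against 2822 in control in the gill line (5 of 22 listed), 537 against 1029 in the liver line (4 listed) and 27.1 against 137 in the gut line (2 listed). On the centred scale 3, 1 and 2 of these genes fell, among them bub1 in all 3 lines. The shares of all genes called lower were 19.6%, 13.3% and 25.9% in the gill, liver and gut lines. With at least 10 control reads they were 27.1%, 17.7% and 34.7%. The summed fibroblast markers were at 3182 against 8733 RPM in the gill line, 25748 against 48598 in the liver line and 5523 against 3680 in the gut line. Centred, col1a1b and col1a2 fell in the gill line (-1.29 and -0.69), none of the 4 listed passed in the liver line (col1a2 at 0.03 and col1a1b at -0.14), and all 3 listed rose in the gut line. The multiciliated markers listed, cfap52, rsph4a and dnai1.2 of which are also members, summed to 1.28 against 2.60, 0.971 against 5.30 and 0.390 against 0.686 RPM. Their only marker in the gill and gut lines, rsph4a, did not pass there (0.14 ± 0.24 and 0.53 ± 0.67). None of the cell cycle, fibroblast and multiciliated markers listed was at 0 in control. The part of these markers in the changes of the cilium and centrosome genes was not tested.

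Fluoxetine gave no call on its main tests. The moderated variance of its F-test had 2.27 to 2.43 degrees of freedom over the 3 lines. By the F-test in the authors' deposited table, 0 of 78, 86 and 79 members passed in the gill, liver and gut lines, beside 0% of all genes, and the lowest adjusted p of a member was 0.226, 0.320 and 0.321. Unadjusted p under 0.05 stood for 8, 8 and 7 members (10.3%, 9.30% and 8.86%), beside 11.5%, 10.4% and 10.1% of all genes. A trend over log10 concentration fitted with limma to the recovered values of single libraries also passed no member, beside 0% of all genes, and 2, 5 and 6 members had an unadjusted p under 0.05 (2.56%, 5.81% and 7.59%, beside 5.46%, 6.44% and 6.57% of all genes). The spread of a member over the 9 libraries was small: for those with at least 50 reads the median SD of the log2 value was 0.13, 0.15 and 0.14, beside 0.16, 0.15 and 0.13 over all genes. At 1000 ppb the median member stood at 0.00, -0.03 and -0.06 on the log2 scale relative to control.

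The dynein-1 gene dync1i1 in the gill line was the exception on a linear scale. Over 1.6, 4, 8, 20, 40, 100, 200, 500 and 1000 ppb it was at 45.8, 21.2, 34.9, 25.6, 44.7, 41.7, 21.2, 7.98 and 0 normalised reads, after 29.6 in control. Levels stayed in one range up to 200 ppb and were below it at 500 and 1000 ppb. With a floor of 3 reads in the 1000 ppb library the level was at least 4.94-fold lower than control. The trend on linear ppb had an adjusted p of 0.0146 (limma), and dync1i1 was 1 of 2 genes of 22051 to pass it (0.00907%, both lower). The call depended on single libraries: without the 1000 ppb library its adjusted p was 0.412 and without the 8 ppb library 0.0600, and without any other single treated library it lay between 0.00151 and 0.0468. On the log10 scale its adjusted p was 0.908. No liver-line or gut-line member passed the linear trend, beside 0.123% and 0.161% of all genes in either direction and 0.0638% and 0.0937% lower. The authors' deposited table gives a benchmark dose of 222 ppb for it, with bounds of 136 and 279. No other member in any line had an accepted fluoxetine curve. The same gene fell with methylmercury in the gut line and not, past the threshold, in the gill line, as given above.

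Some single fluoxetine libraries held 0 reads of genes that most other libraries of the line held near the control level. In gill-line cells bbs9 was at 0 at 1.6 and at 100 ppb, where 44.9 and 63.1 reads would match control, and cfap61 was at 0 at 100 and 200 ppb. The liver-line cases included bbs12 at 200 ppb, cfap61 at 20 ppb and spag9a at 8 ppb, and in the gut line cfap94 was at 0 at 40 ppb and spag9a at 4, 40 and 500 ppb. These libraries follow no order of concentration, and the median over the other libraries was near control, for example 190 against 195 normalised reads for spag9a in the liver line. Such a library was found for 2.56%, 4.65% and 2.53% of members in the gill, liver and gut lines, beside 1.80%, 1.79% and 1.44% of all genes.

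**Figure D5:**
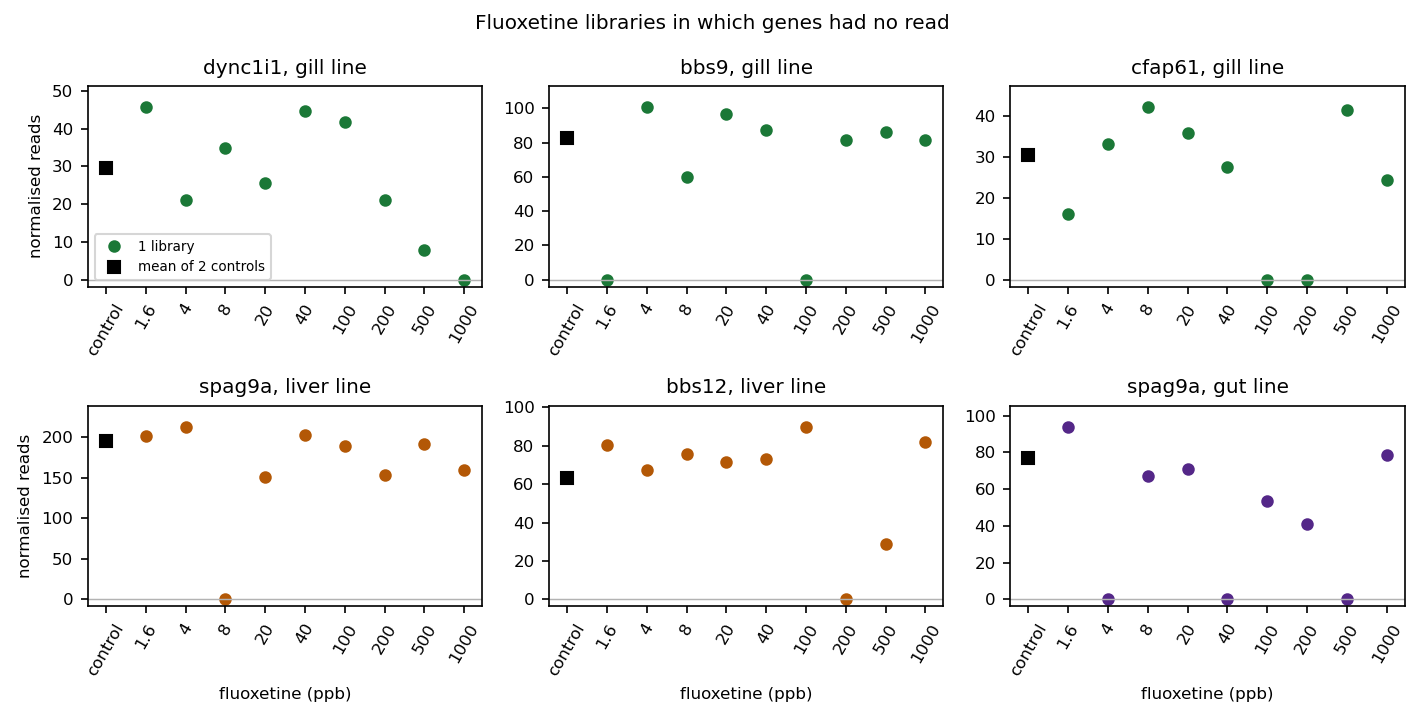
Normalised reads of 5 members with fluoxetine libraries at 0 reads, over control (square, mean of 2 libraries) and the 9 concentrations in ppb (circles, 1 library each), in the lines named in the 6 panels. Most other libraries lie near the control level, cfap61 in the gill line is at 0 at 2 neighbouring concentrations, bbs12 in the liver line is at 28.8 next to its 0, and dync1i1 in the gill line is lowest at the 2 highest concentrations.

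Of the 12 genes that fell in every line with methylmercury, 11 were listed in a fluoxetine table, with 26 values over the 3 lines, and ift172 was in none. At 1000 ppb these values lay between -0.66 (bbs1, gill line) and 0.62 (cfap94, gill line) on the log2 scale relative to control, with a median of 0.00, and the lowest adjusted p of their log10 trends was 0.758. Libraries at 0 reads of cfap61 and cfap94 at lower concentrations are given above. Within the gut line at 1000 ppb of fluoxetine, ift74 was at 603 normalised reads against 601 in control, tctn2 at 404 against 389 and tmem67 at 223 against 192, and their methylmercury changes at 250 in that line were -1.83, -1.54 and -2.45. The 2 genes that rose in every line with methylmercury were at 116 against 110 (cep85l) and at 65.1 against 39.5 (cfap157) in the same fluoxetine libraries. None of these 5 passed the fluoxetine trend. The chemicals were tested at different concentrations and with different numbers of libraries, so no test was made between them.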

How the data were processed

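Reads were filtered with fastp and quantified with Salmon, per the submitters' processing notes; versions, genome build and test tool are not given in the sources used here. The authors deposited, for each line and chemical, log2 fold changes against control and mean log2 expression, the F score of a test over all concentrations, its p-value and adjusted p-value, and, in separate tables, benchmark doses on the concentration scale with a lack-of-fit p-value, the control level in log2 and a residual SD score. Symbols came from a RefSeq gene table and matched all 35945 gene IDs.

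From these tables the control mean, the moderated residual variance and its degrees of freedom (7.11 to 7.28 for methylmercury) were recovered for each gene, on the scale log2(reads + 0.5), and with them counts for each fluoxetine library and geometric mean counts for each methylmercury pair. The share of fluoxetine values that came out whole within 0.05 reads was 70.8%, 70.4% and 71.3% in the gill, liver and gut lines. Methylmercury changes were centred on the median of all genes and tested two-sided with the recovered variance (moderated as in limma 3.58.1, R 4.3.3, and computed in Python 3.11.15 with scipy 1.17.1), differences between lines with Welch-Satterthwaite degrees of freedom, and fluoxetine trends with limma on log10(ppb + 1.6). Each was adjusted by Benjamini-Hochberg over all genes of the table. Benchmark doses were used where the lack-of-fit p was above 0.1, the dose was not above the highest concentration and the ratio of upper to lower bound was under 40. The tests were also run on simulated data, with no outcome given here. In those data few genes changed, equally up and down, and the median gene did not shift. The centring was therefore not tried there.

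Named members were, in each role and line, up to 3 called with the largest change, the 5 highest and 5 lowest over all roles, those called in all lines or in opposite directions or below 125, those with the lowest benchmark doses and the highest control levels; ift46, ift52, ift88, ift122, ift140, ift57, dnah5, dnah10, bbs12, cfap91, cep83, cep290 and cep76 and the neighbouring genes described beside them were picked after their values were seen, the neighbouring genes from fixed lists. The members and lists were chosen with earlier results of these data known. Promoter motifs were not analysed here, because no sequences were used. Some genes of these groups are counted in the totals but not reported by name here.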

Additional observations from a re-analysis of the deposited data

Results flagged for a closer look

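The test of the difference between 2 lines in the centred change at methylmercury 250 passed for the following members (Welch-Satterthwaite test on limma-type variances, Benjamini-Hochberg over all genes shared by the 2 tables). Each value is the first line's log2 change minus the second line's, with its SE and adjusted p, and no explanation was tested.

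Between the gill line and the liver line, the difference was positive for cfap157 (1.69 ± 0.34, 0.00712), cfap53 (1.74 ± 0.43, 0.0185), cfap299 (3.84 ± 0.90, 0.0163), odad4 (1.93 ± 0.46, 0.0145).

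Between the gut line and the liver line, the difference was positive for cfap157 (3.70 ± 0.34, 2.1e-05), ift46 (1.34 ± 0.32, 0.0145), cfap299 (3.59 ± 0.58, 0.00162), cfap53 (6.29 ± 0.78, 8.6e-04). The gut-minus-liver difference was negative for cfap61 (-1.79 ± 0.39, 0.0114), cep83 (-1.04 ± 0.19, 0.00257), tctn2 (-0.59 ± 0.19, 0.0469), cfap36 (-0.96 ± 0.20, 0.00414), tmem67 (-1.54 ± 0.27, 0.00216), cep72 (-0.97 ± 0.21, 0.00505), cep19 (-1.46 ± 0.36, 0.0140).

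Between the gut line and the gill line, the difference was positive for cfap157 (2.0 ± 0.27, 1.5e-04), ift46 (1.19 ± 0.26, 0.00652), cfap53 (4.55 ± 0.81, 0.00361), dnah7 (1.78 ± 0.36, 0.00354), spag17 (2.01 ± 0.41, 0.00451). The gut-minus-gill difference was negative for cep83 (-0.56 ± 0.16, 0.0232), rsph3 (-1.07 ± 0.23, 0.00600), cfap36 (-0.97 ± 0.18, 0.00257), tmem67 (-1.20 ± 0.28, 0.0101), cep76 (-1.28 ± 0.22, 0.00126), cfap298 (-0.69 ± 0.18, 0.0164), cep19 (-1.34 ± 0.36, 0.0220).

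The values of cfap299 rest on a liver-line group at 0 reads, where the change was at most -1.44 by the 3-read floor against a fitted -4.25, so the size of both of its differences is uncertain. The gut-minus-liver count in the report also holds cfap57, which had no reads in gut-line control or at 250, and no fold is given for it. For cfap53 the gut-line control level was 2.0 normalised reads.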

How the results depend on the processing

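Without centring, 46, 55 and 52 members were lower at methylmercury 250 in the gill, liver and gut lines and 2, 3 and 4 were higher, and 58 liver-line members were called in all, since the median gene itself fell. By the authors' deposited F-test with the sign at 250, 40 gill-line and 46 liver-line members were lower, 4 and 3 were higher, and 49 liver-line members were called in all. With adjusted p under 0.01, 15 members were lower, 4 higher and 19 in all in the gill line, and 4 in the liver line and 5 in the gut line were higher. With an F-test on centred changes 3 gill-line and 6 gut-line members were higher, and with at least 10 control reads 6 gut-line members were higher. Counts under trimmed-mean centring and with fewer residual degrees of freedom stayed within 1.5 times those reported. Under trimmed-mean centring, 18 gill-line members were lower at 250, in place of 25.

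Uncentred changes reversed in the gut line for dnah7 (-0.14), spag17 (-0.07), spag9b (-0.53) and cep41 (-0.70). Among the single-gene results that were compared between settings, which do not cover all members, 11 calls were lost and 20 gained without centring. The changes in counts over all members, given above, were larger. The shift of all genes that centring removes was -0.89, -0.78 and -1.01 in the gill, liver and gut lines. Among those single-gene results, centring on a trimmed mean lost 7 calls and gained 1. The count of 0 members with a log10 fluoxetine trend stayed 0 with any single treated library left out. On linear ppb 1 gill-line member, dync1i1, had a trend, and an alternative chosen after seeing the data, leaving out each treated library in turn, gave 0 to 1 there, with 0 without the 8 or the 1000 ppb library. Without filters 2 gill-line members had a fluoxetine benchmark dose, with a median of 1685 ppb. No paired analysis was possible because the methylmercury tables hold group means only, so no library could be left out there either. Genes under about 10 reads limit the size of a change that can be seen.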

Other observations

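In the methylmercury tables some members had a level far below control at 1 or more concentrations and a wide error. In the gut line spag9a went through 85.0 normalised reads in control, 4.90, 75.5, 66.0, 4.85 and 16.9, with an SE of 2.78 on the log2 scale. In the liver line bbs9 went through 128, 118, 125, 98.6, 5.73 and 64.8, with an SE of 1.96, and in the gut line through 63.6, 57.2, 72.0, 48.9, 3.41 and 2.56, with an SE of 2.08. The same 2 genes had fluoxetine libraries at 0 reads, spag9a in the liver and gut lines and bbs9 in the gill line. These genes were picked after their values were seen, and no cause was tested.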
